A study of Homo sapiens with 4 samples.

Results

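The genes described here are 7 cadherins (CDH1, CDH2, CDH3, CDH4, CDH6, CDH11 and CDH13) and 3 catenins (CTNNA1, CTNNB1 and CTNND1), 10 of the 57500 genes counted in SUM159 cells. They were found by symbol, through the GENCODE release 29 annotation, a rule that uses no measured value, although the family was picked with earlier results of these data known. All 10 had enough counts to be tested. SUM159 is a cell line of triple-negative, metaplastic breast cancer (MpBC). RNA of parental SUM159 cells (1 library) was compared with RNA of 3 NOS2KO clones (1 library each, numbered 1, 5 and 6), which asked what loss of inducible nitric oxide synthase (iNOS, the product of NOS2) does to these cells. The clones grew from parental cells that received a double nickase plasmid against NOS2, were selected with puromycin and were picked by their iNOS protein and by a nitrite and nitrate assay. The parental cells are labelled as control with no plasmid or puromycin named, so the edit, the selection and the passage through a single cell cannot be told apart.

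Classical cadherins are transmembrane proteins that hold neighbouring cells together in the presence of calcium, each preferring its own kind on the other cell. Their cytoplasmic tails bind p120-catenin (CTNND1) next to the membrane and beta-catenin (CTNNB1) near the end, and alpha-catenin (CTNNA1) links beta-catenin to actin. In epithelial-to-mesenchymal transition (EMT), carcinoma cells typically lose E-cadherin (CDH1) and gain N-cadherin (CDH2), which makes this family a usual readout of EMT in breast cancer.

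The last 60 coding bases of the 7 cadherins are shown because they separate the members that carry the catenin-binding tail from the one that does not. They were read from GENCODE release 29 transcripts on GRCh38, 5′ to 3′ and without the stop codon, and capitals mark the 21 bases that encode a run of 7 residues shared by the tails of 6 members.
CDH1: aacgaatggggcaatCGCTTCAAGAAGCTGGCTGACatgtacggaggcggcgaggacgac
CDH2: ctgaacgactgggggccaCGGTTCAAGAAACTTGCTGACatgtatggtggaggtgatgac
CDH3: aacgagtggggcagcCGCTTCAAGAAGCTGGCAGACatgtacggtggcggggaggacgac
CDH4: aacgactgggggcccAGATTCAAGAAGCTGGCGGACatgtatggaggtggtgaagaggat
CDH6: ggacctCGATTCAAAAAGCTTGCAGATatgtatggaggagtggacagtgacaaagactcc
CDH11: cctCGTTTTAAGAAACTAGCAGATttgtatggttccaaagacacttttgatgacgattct
CDH13: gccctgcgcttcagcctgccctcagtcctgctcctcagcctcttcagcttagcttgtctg

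Of those 21 bases, 18 were the same as in CDH2 in CDH1, 17 in CDH3, and 16 each in CDH4, CDH6 and CDH11. CDH13 (T-cadherin), which is held at the membrane by a lipid anchor and has no cytoplasmic tail, does not hold the run, so its end is in lower case throughout. The printed ends lie at chr16:68833437-68833496 for CDH1, chr18:27952156-27952215 for CDH2, chr16:68698338-68698397 for CDH3, chr20:61936881-61936940 for CDH4, chr5:31323246-31323305 for CDH6 and chr16:64947606-64947665 for CDH11, the ones of CDH2 and CDH11 on the minus strand, and that of CDH13 is split by an intron. Between the coding sequences of any pair of members the longest identical run was 19 bases, in CDH4 and CDH13.

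Counts on genes totalled 90467395 in the parental cells and 97362293 to 122171287 in the clones. NOS2 itself had 2 counts in parental cells, 3 in clone 1, 1 in clone 6 and 18 in the library labelled clone 5. Since 3 counts were taken as the floor, NOS2 mRNA does not check the labels, and in the last of these libraries it was above the parental level (log2 ratio 2.93, exact 95% interval 0.87 to 6.08). Levels are given as counts per 1000000 counts (CPM) of the library size scaled by edgeR's TMM method, in which 3 counts are 0.0262 to 0.0332 CPM. All clones together were compared with the parental cells by edgeR's quasi-likelihood test, and positive log2 fold changes stand for higher levels in the clones. Since the parental group is a lone library, the clones gave the spread (2 residual degrees of freedom), and permuting 1 label among 4 libraries has a smallest exact p of 0.25. A p here sets the difference from the parental library against a spread estimated from these clones, 1 library each. That spread is moderated by the one of all genes tested (2.75 prior degrees of freedom), and a spread among parental libraries is not estimated. For single clones, the ratio to the parental level is given with an exact 95% interval, which covers counting error only.

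Among the classical cadherins, N-cadherin was abundant in every library, CDH6 was higher in each clone than in the parental cells, CDH11 was lower in each clone, and E-cadherin was near the detection floor. Among the catenins, CTNND1 was higher in each clone and CTNNA1 lay between 0.832 and 1.24 times its parental level. In edgeR's quasi-likelihood test 0 of the 10 members had an adjusted p under 0.05, beside 0.00444% of the 22511 genes tested, which is 1 gene, and 3 members were under 0.05 before adjustment. The study's volcano plot, of AP-1 regulated genes, names a p under 0.05 and a Wald test together with a log2 fold change beyond 1, and by such a criterion with edgeR's p before adjustment CDH6 and CTNND1 were higher (4.24% of all genes tested were) and CDH11 was lower (5.34% were). DESeq2's Wald test gave an adjusted p under 0.05 to 2 members, CDH6 and CTNND1, and to 6.18% of the genes that received one. CDH6, CTNNB1 and CTNND1 were above the parental level in all 3 clones, as were 28.6% of the genes tested, and CDH4 and CDH11 were below it in all 3, as were 30.5%. Shares of 10 genes are coarse, and the list as such was not tested. The median log2 fold change was -0.05 over the members and 0.10 over all genes tested. The first includes CDH1, which passed the expression filter only through the library labelled clone 5, where it was highest.

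**Figure D1:**
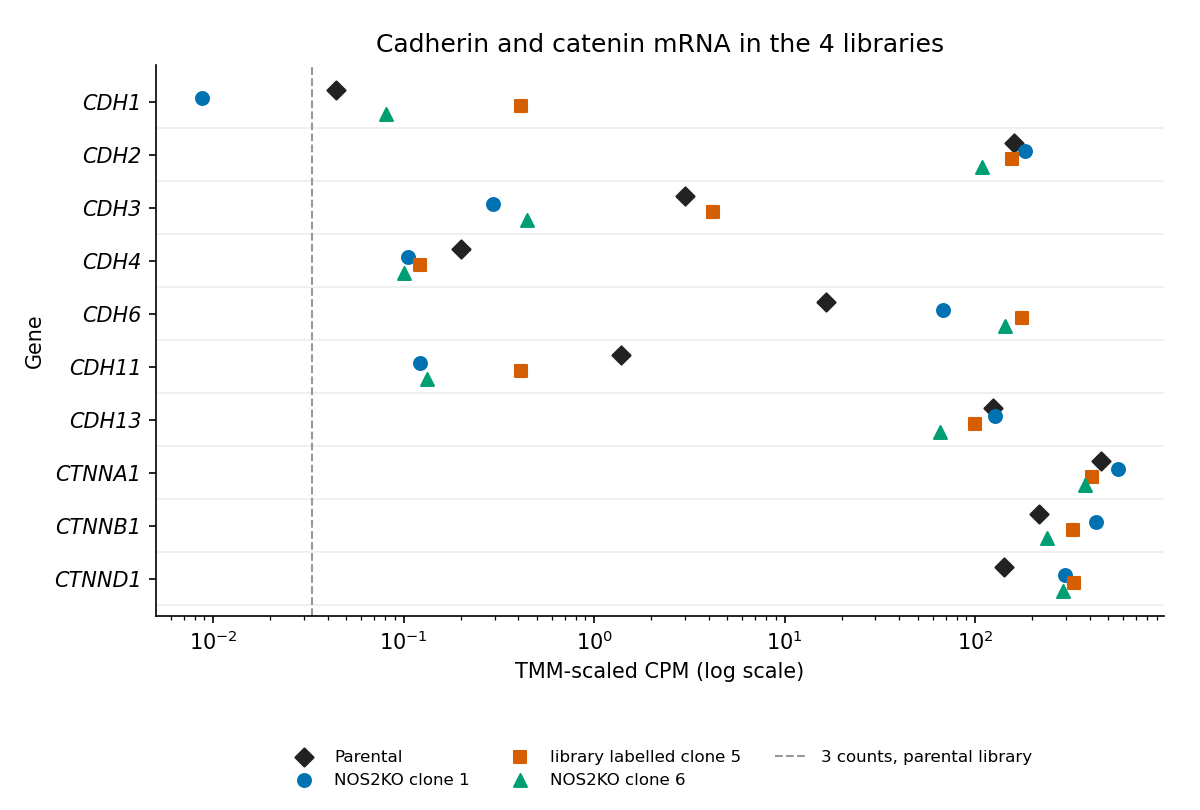
Level of the 10 members in each of the 4 libraries, in TMM-scaled CPM on a log axis, with 1 point per library and a dashed line at 3 counts in parental cells. CDH6 and CTNND1 of the 3 clones lie to the right of the parental point, CDH11 and CDH4 lie to its left, and CDH1 stays under 1 CPM in every library.

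CDH6 (K-cadherin, a type II cadherin of the developing kidney and nervous system; ENSG00000113361, chr5:31193750-31329146 of GRCh38, the build of every position given) had 16.4 CPM in parental cells, 67.6 in clone 1, 143 in clone 6 and 177 in the library labelled clone 5. The clones did not overlap the parental level, and clone 1 lay apart from the other two. Their mean was 129 ± 55.8 CPM (SD, n = 3 clones), and the fitted log2 fold change was 2.97 (standard error 0.58), a 7.85-fold higher level, with an adjusted p of 0.332 in edgeR's quasi-likelihood test. Clone by clone the log2 ratio was 2.04 (interval 1.96 to 2.12) in clone 1, 3.12 (3.04 to 3.20) in clone 6 and 3.43 (3.35 to 3.50) in the library labelled clone 5. These intervals do not touch each other, so the clones differed from one another by more than counting error. DESeq2 gave CDH6 an adjusted p of 0.00056, while over the other tests, filters and scalings tried it went up to 0.341, and with a clone left out it was 0.112 to 0.739. The unadjusted criterion was met whichever clone was left out, with a log2 fold change of 2.70 to 3.28.

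CDH11 (OB-cadherin, a type II cadherin of mesenchymal cells and osteoblasts; ENSG00000140937, chr16:64943753-65126112, minus strand) was a low-level transcript in this line. It had 126 counts in parental cells (1.39 CPM), 14 in clone 1 (0.122 CPM), 13 in clone 6 (0.132 CPM) and 44 in the library labelled clone 5 (0.413 CPM). All 3 clones were below the parental level, and the library labelled clone 5 stood nearest to it. The parental level was 11.4 times that of clone 1 (interval 6.56 to 21.5), 10.6 times that of clone 6 (5.96 to 20.4) and 3.38 times that of the library labelled clone 5 (2.38 to 4.87). The fitted log2 fold change was -2.64 (standard error 0.96), with an adjusted p of 0.385 in edgeR's quasi-likelihood test. The unadjusted p in edgeR's fit moved from 0.0308 to 0.053 without clone 1 and to 0.0829 without clone 6, which takes CDH11 out of the criterion at a log2 fold change of -2.35 and -2.38, and it was 0.0102 without the library labelled clone 5 and 0.0671 (log2 fold change -2.60) with a minimum of 1 CPM in a library as the filter.

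CDH1 (E-cadherin, the main cadherin of epithelia; ENSG00000039068, chr16:68737225-68835548) was close to absent from every library. It had 4 counts in parental cells, 1 in clone 1, 8 in clone 6 and 44 in the library labelled clone 5, which are 0.0443, 0.00872, 0.0811 and 0.413 CPM. CDH1 passed the expression filter only through the library labelled clone 5, the one in which NOS2 was also above the floor. That library was 9.33 times above the parental level (interval 3.4 to 35.7), the ratio of clone 6 was 1.83 (0.491 to 8.32) and that of clone 1 was 0.197 (0.004 to 1.99). The first interval excludes equality and the other two do not. The fitted log2 fold change of 1.89 had a standard error of 2.07 and an adjusted p of 0.758 in edgeR's quasi-likelihood test, so the difference was smaller than the spread between the clones. A difference of E-cadherin mRNA between parental cells and clone 1 or clone 6 was not detectable at this depth.

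CDH3 (P-cadherin, a cadherin of basal epithelium; ENSG00000062038, chr16:68636189-68722616), the neighbour of CDH1 on the chromosome, split the clones. It had 270 counts in parental cells (2.99 CPM), 34 in clone 1 (0.296 CPM), 44 in clone 6 (0.446 CPM) and 447 in the library labelled clone 5 (4.19 CPM). Clones 1 and 6 lay under the parental level and the library labelled clone 5 above it. The log2 ratio was -3.33 (interval -3.89 to -2.81) in clone 1, -2.74 (-3.24 to -2.28) in clone 6 and 0.49 (0.27 to 0.71) in the library labelled clone 5. Over the 3 clones the log2 fold change was -0.86 (standard error 1.63, adjusted p = 0.851 in edgeR's quasi-likelihood test). Without the library labelled clone 5 it was -2.98 in edgeR's fit, with an adjusted p of 0.576, and CDH3 then met the unadjusted criterion. An antisense transcript in the gene, AC126773.2, had 3, 0, 1 and 74 counts in parental cells, clone 1, clone 6 and the library labelled clone 5, and without a stated strand setting its reads and those of CDH3 cannot be told apart.

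CDH2 (N-cadherin, the cadherin of neural and mesenchymal cells; ENSG00000170558, chr18:27950966-28177446, minus strand) had 160 CPM in parental cells, 183 in clone 1, 109 in clone 6 and 156 in the library labelled clone 5. The parental level lay inside the range of the clones. Their mean was 149 ± 37.2 CPM (SD, n = 3 clones), and the log2 fold change was -0.09 (standard error 0.38, adjusted p = 0.939 in edgeR's quasi-likelihood test). That direction turned with upper quartile scaling (0.0033) and without clone 6 (0.09), so no direction is given for CDH2. Single clones departed from the parental library by more than counting error, with a ratio of 1.15 (interval 1.12 to 1.17) in clone 1 and 0.685 (0.668 to 0.702) in clone 6, while the library labelled clone 5 was at 0.98.

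CDH13 (T-cadherin; ENSG00000140945, chr16:82626803-83800640) had 124 CPM in parental cells, 127 in clone 1, 65.8 in clone 6 and 100 in the library labelled clone 5. The parental level again lay inside the range of the clones, of which clone 6 was lowest, with a ratio of 0.53 (interval 0.514 to 0.547). Its log2 fold change was -0.35 (standard error 0.44, adjusted p = 0.775 in edgeR's quasi-likelihood test). CDH4 (R-cadherin, first described in the retina; ENSG00000179242, chr20:61252426-61940617) had 18 counts in parental cells and 12, 10 and 13 in clone 1, clone 6 and the library labelled clone 5. Each of its 3 intervals included no difference, and with so few counts a change of the size of its log2 fold change (-0.86, standard error 0.82) could not be told from counting error.

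CTNND1 (p120-catenin, which holds cadherins at the cell surface; ENSG00000198561, chr11:57753243-57819546) had 142 CPM in parental cells, 296 in clone 1, 288 in clone 6 and 330 in the library labelled clone 5. The clones lay close together, at 305 ± 22 CPM (SD, n = 3 clones), and all were above the parental level. The log2 ratio was 1.06 (interval 1.03 to 1.09) in clone 1, 1.02 (0.99 to 1.05) in clone 6 and 1.22 (1.19 to 1.24) in the library labelled clone 5. The fitted log2 fold change was 1.10 (standard error 0.29), a 2.15-fold higher level, with an adjusted p of 0.35 in edgeR's quasi-likelihood test. DESeq2 gave it an adjusted p of 0.0309, the other tests, filters and scalings up to 0.46, and the fits with a clone left out 0.147 to 0.763. Its unadjusted p in edgeR's fit moved from 0.0174 to 0.0606 without the library labelled clone 5 and to 0.0618 without clone 6, with a log2 fold change of 1.06 and 1.14. A read-through gene on the same strand, TMX2-CTNND1, had 2 to 41 counts in these libraries. Other overlapping genes had few counts beside those of the members, with 5 to 71 for AC110015.1 (antisense in CDH2) and 198 to 303 for ULK4 (antisense to CTNNB1).

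CTNNB1 (beta-catenin, also a coactivator of Wnt target genes; ENSG00000168036, chr3:41194837-41260096) had 216 CPM in parental cells, 432 in clone 1, 239 in clone 6 and 327 in the library labelled clone 5. Each clone was above the parental level, from a ratio of 1.11 in clone 6 (interval 1.08 to 1.13) to 2.00 in clone 1 (1.96 to 2.03). The log2 fold change of 0.62 (standard error 0.42) was within 1 and CTNNB1 did not meet the unadjusted criterion (adjusted p = 0.617 in edgeR's quasi-likelihood test). CTNNA1 (alpha-catenin; ENSG00000044115, chr5:138610967-138935034) had 456 CPM in parental cells, 564 in clone 1, 379 in clone 6 and 410 in the library labelled clone 5. Its parental level was inside the range of the clones, the log2 fold change was -0.01 (standard error 0.37, adjusted p = 0.991 in edgeR's quasi-likelihood test), and the direction turned under several settings, so none is given.

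**Figure D2:**
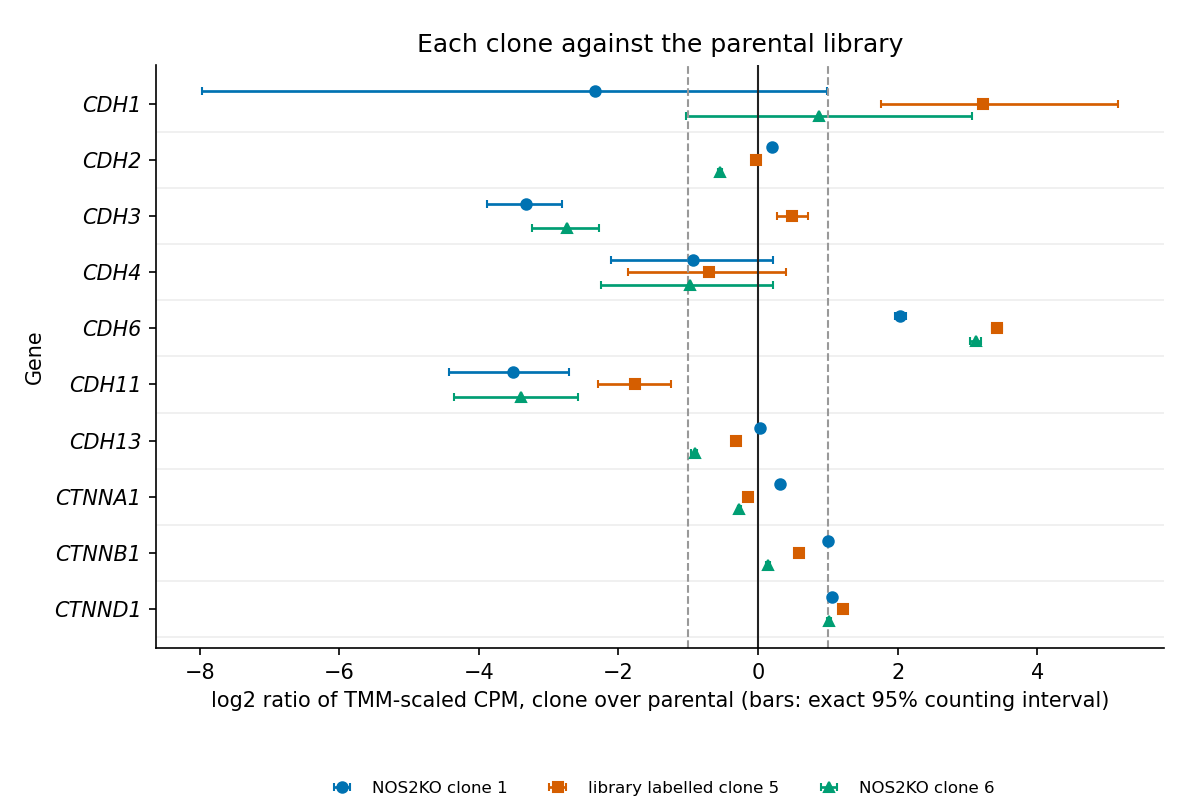
log2 ratio of each clone to the parental library for the 10 members, with exact 95% intervals from the counts, a solid line at no difference and dashed lines at 1 and -1. The 3 clones fall on one side of both dashed lines for CDH6 and CDH11, sit at 1.02 to 1.22 for CTNND1, and fall on both sides of 0 for CDH1, CDH2, CDH3, CDH13 and CTNNA1.

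Each clone was also set against the parental library alone, with no test, since both sides have 1 library. The 3 comparisons share that library. In clone 1, 2 of the 10 members were higher by over 1 on the log2 scale (CDH6 and CTNND1) and 3 were lower (CDH1, with 1 count, CDH3 and CDH11), where 17.1% and 20.2% of all genes tested were. In the library labelled clone 5, 3 were higher (CDH1, CDH6 and CTNND1) and 1 was lower (CDH11), beside 21.3% and 14.7% of all genes. CDH1 passed the expression filter only through that library, so it had to be higher there. In clone 6, 2 were higher (CDH6 and CTNND1) and 2 were lower (CDH3 and CDH11), beside 19.3% and 16.7%. With CDH1 counted, the members thus departed from the parental library about as often as other genes did. Just inside this limit lay CTNNB1 in clone 1, whose log2 ratio of 1.00 became 1.03 with RLE size factors, and just outside it lay CTNND1 in clone 6 at 1.02.

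Levels of different genes were compared per kilobase of exon, as listed in the files. In the parental library the 3 catenins and N-cadherin led, with 51.6 CPM per kilobase for CTNNA1, 32.7 for CTNNB1, 32.2 for CDH2 and 16.1 for CTNND1. CDH13 followed at 11.1 and CDH6 at 1.33, and the other cadherins were under 1. In clone 6, CDH2 had 22.1 CPM per kilobase and CDH6 had 11.5. The level of CDH6 relative to CDH2, per kilobase, was 0.0412 in parental cells, 0.148 in clone 1, 0.522 in clone 6 and 0.452 in the library labelled clone 5. N-cadherin thus remained ahead of CDH6 in every library, and of E-cadherin too, by a per-kilobase factor of 472 in the library labelled clone 5, where CDH1 was highest.

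Of the summed per-kilobase level of the 7 cadherins, CDH2 made up 71.2% in parental cells, 68.6% in clone 1, 55.7% in clone 6 and 56.8% in the library labelled clone 5. The share of CDH6 was 2.93%, 10.2%, 29.1% and 25.7% in the same order, and that of CDH13 was 24.5%, 21.1%, 14.9% and 16.1%. The exon length in the files joins the exons of every transcript, and for CDH13 it is 11187 bases, where 1 principal transcript has 2722. With transcript lengths, a choice made after seeing the data, CDH13 took 53.5% in the parental library and CDH2 43.2%. Which of those leads there thus depends on the length used. In clone 6 CDH2 led with both lengths, and with transcript lengths it had 38% and CDH13 36.4%. The share of CDH6 was then 2.28%, 8.23%, 25.4% and 22% in that order, and CDH6 relative to CDH2 was 0.0527, 0.189, 0.668 and 0.578. Among all 23 cadherins counted, per kilobase of exon, CDH2 made up 56% in parental cells and 50%, 34.9% and 39.7% in clone 1, clone 6 and the library labelled clone 5. CDH12, a cadherin of the nervous system named after its values were seen, made up 13% in parental cells and 10.5%, 19.4% and 10.9% in those clones, and CDH24 made up 5.03% and 15.6%, 12.5% and 14.5%.

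**Figure D3:**
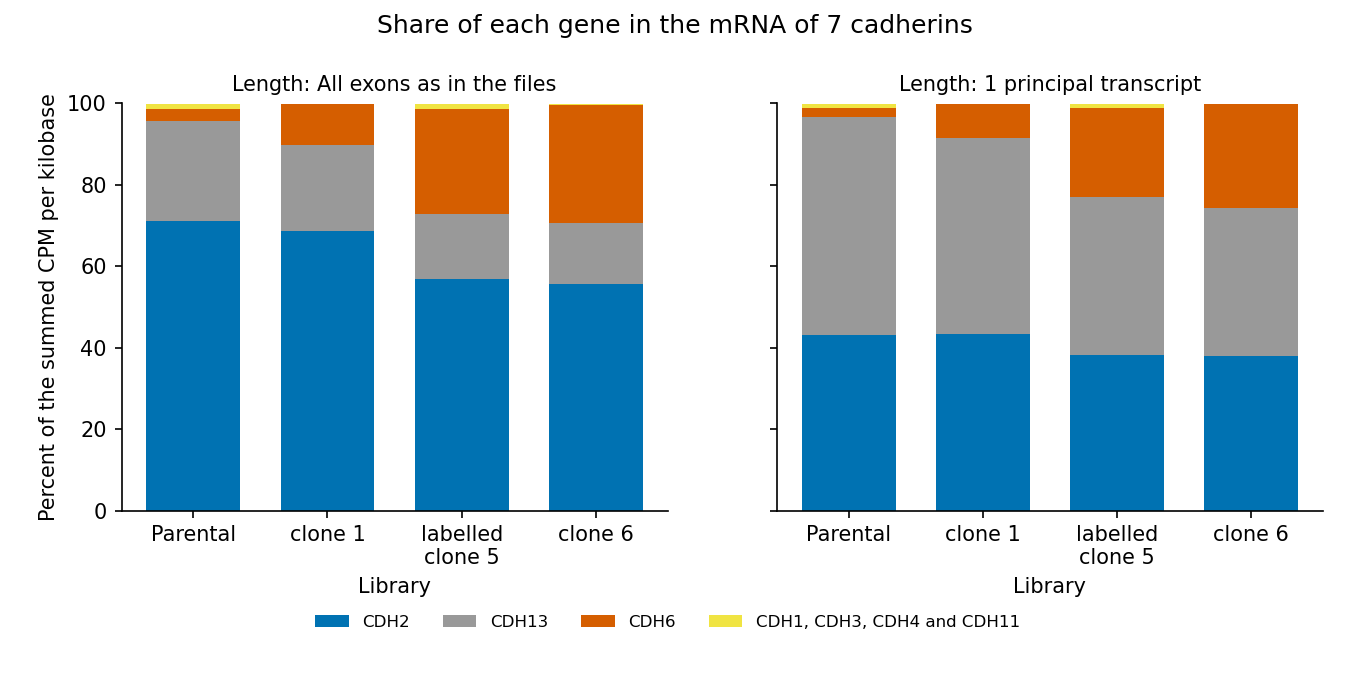
Percent of the summed CPM per kilobase of the 7 cadherins taken by CDH2, CDH13, CDH6 and the remaining 4 genes in each library, on the left per length of all exons and on the right per length of 1 principal transcript. The share of CDH6 runs from 2.93% in the parental library to 29.1% in clone 6 on the left, and from 2.28% to 25.4% on the right. CDH2 leads CDH13 in every library on the left. On the right CDH13 leads CDH2 in all libraries but clone 6, where CDH2 has 38% and CDH13 36.4%.

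The catenins were also set against each other. The level of CTNND1 relative to CTNNA1, per kilobase, was 0.313 in parental cells, 0.527 in clone 1, 0.763 in clone 6 and 0.808 in the library labelled clone 5. CTNNB1 relative to CTNNA1 was 0.634 in the parental library and 1.02, 0.843 and 1.06 in clone 1, clone 6 and the library labelled clone 5. With the length of 1 principal transcript, CTNND1 relative to CTNNA1 was 0.185 in parental cells and 0.313, 0.453 and 0.479 in the same order, and CTNNB1 relative to CTNNA1 was 0.377 and 0.608, 0.501 and 0.632, so CTNNB1 then lay under CTNNA1 in every library. In both ratios and with both lengths every clone was above the parental library, and neither ratio was tested. The summed level of the 6 cadherins with a catenin-binding tail was 34.2 CPM per kilobase in the parental library and 42.4, 33.7 and 46.6 in clone 1, clone 6 and the library labelled clone 5. Clone 6, with the second highest ratio of CTNND1 to CTNNA1, thus had a cadherin sum close to the parental one.

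Of 16 other cadherins, 11 were tested, and 2 met the unadjusted criterion, both higher in the clones. The same 2, CDH18 and CDH24, had an adjusted p under 0.05 in DESeq2. For this list and those below, the shares over all genes tested were 4.24% higher and 5.34% lower by the criterion. In DESeq2 the share was 6.18% of the genes that received an adjusted p. Of the 11, 5 had under 10 counts in parental cells (CDH5, CDH7, CDH10, CDH17 and CDH18) and passed the filter only through clones in which they were higher, so no median of this list is given, and CDH18 had to differ. CDH24 (a type II cadherin) had 10.8 CPM in parental cells and 43.2, 29.5 and 43.3 in clone 1, clone 6 and the library labelled clone 5, and its log2 fold change was 1.84 with an adjusted p of 0.327 in edgeR's test (standard error 0.35). CDH18, a cadherin of the nervous system, had 4 counts in parental cells and 259, 216 and 148 in the clones, and its log2 fold change was 5.42 with an adjusted p of 0.275 in edgeR's test (standard error 0.70). CDH5 (the cadherin of endothelial cells) had 1 count in parental cells, 12 in clone 1, 16 in clone 6 and 372 in the library labelled clone 5, and did not meet the criterion. Among 8 other catenins and armadillo proteins, 6 were tested, and 0 had a p under 0.05 in edgeR before adjustment or an adjusted p under 0.05 in DESeq2.

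Of 20 partners of the adhesion complex, all tested, 1 met the criterion higher in the clones and 2 lower (4.24% and 5.34% of all genes tested did), with a median of 0.00. VCL (vinculin, recruited to alpha-catenin under tension) had 92 CPM in parental cells and 251, 353 and 366 in clone 1, clone 6 and the library labelled clone 5, and its log2 fold change was 1.81 with an adjusted p of 0.327 in edgeR's test (standard error 0.35). KIFC3 (a kinesin of adherens junctions) had 215 CPM in parental cells and 88, 59.9 and 102 in the clones. DESeq2 gave an adjusted p under 0.05 to 2 genes of this list, VCL and PLEKHA7, the latter a junction protein named for this call, with 0.819 CPM in parental cells and 1.89, 13.7 and 36.1 in the clones. AJUBA (a LIM protein that binds alpha-catenin) had 271 CPM in parental cells and 142, 73.6 and 120 in the clones. Of 12 genes of cadherin turnover and shedding, all tested, 0 met the criterion and 1 had an unadjusted p under 0.05 in edgeR, and DESeq2 gave 0 of them an adjusted p under 0.05.

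Of 16 regulators of CDH1, 13 were tested, 1 met the criterion higher and 2 lower (4.24% and 5.34% of all genes tested did), with a median of 0.03. TWIST1, an EMT transcription factor, had 16.1 CPM in parental cells and 36.1, 29.5 and 31.9 in clone 1, clone 6 and the library labelled clone 5, and its log2 fold change was 1.02 with an adjusted p of 0.367 in edgeR's test (standard error 0.29). ELF3, an epithelial transcription factor, had 251 counts in parental cells and 63, 10 and 13 in the clones, and ESRP1, an epithelial splicing factor, had 511 and 8, 22 and 86. ESRP1 was the 1 gene of this list with an adjusted p under 0.05 in DESeq2. The CDH1 repressors that did not meet the criterion lay on both sides of the parental level. SNAI1 had 11.8 CPM in parental cells and 13.5, 31.5 and 30.5 in the clones, and SNAI2 had 11 and 24.4, 17.6 and 17.4. ZEB1 had 83.7 CPM in parental cells and 39.5, 57.8 and 50 in the clones, and its log2 fold change was -0.77 with an adjusted p of 0.448 in edgeR's test (standard error 0.32), and ZEB2 had 57.7 and 40.2, 44.3 and 40.4. SNAI1 and SNAI2 were thus above, and ZEB1 and ZEB2 below, the parental level in all 3 clones. Of the 13 regulators tested, 4 were above it in all 3 and 5 below, beside 28.6% and 30.5% of all genes tested. CDH1 itself was above the parental level in 2 of 3, and only in the library labelled clone 5 did the interval of its ratio exclude equality.

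Of 18 genes of beta-catenin destruction and transcription, all tested, 1 met the criterion, lower in the clones (5.34% of all genes tested did). In DESeq2, 0 of the list had an adjusted p under 0.05. AXIN1, a scaffold of the complex that marks beta-catenin for destruction, had 98.1 CPM in parental cells and 48.5, 32.2 and 36.1 in clone 1, clone 6 and the library labelled clone 5, and its log2 fold change was -1.33 with an adjusted p of 0.332 in edgeR's test (standard error 0.34). The median of that list was 0.05.

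**Figure D4:**
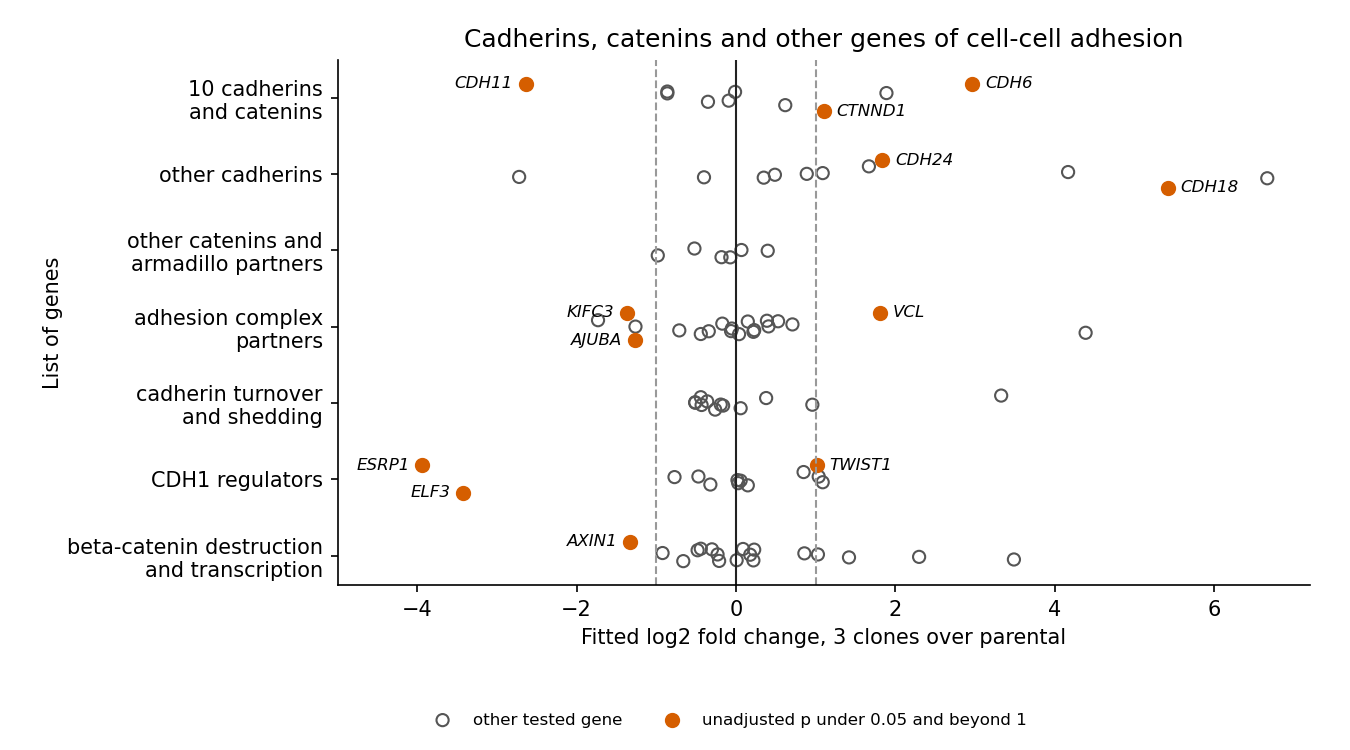
Fitted log2 fold change of the 3 clones over the parental library for each tested gene of 7 lists, with filled points for an unadjusted p under 0.05 beyond 1 on the log2 scale (dashed lines) and open points for the others. Filled points stand on both sides of 0 among the 10 cadherins and catenins, from CDH11 at -2.64 to CDH6 at 2.97, and 5 of the 11 open and filled points of the other cadherins are genes with under 10 counts in parental cells.

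Marker genes were read beside these values, where 4.24% of all genes tested met the criterion higher and 5.34% lower. Of 10 epithelial markers 9 were tested, and their summed level was 572 CPM in parental cells and 843 to 1280 in the clones, nearly all of it KRT8 and KRT18. EPCAM had 5 to 28 counts, CLDN3 was at 0 in all libraries but clone 6 (1 count). The epithelial markers that met the criterion were lower in the clones, ESRP1 and KRT14, and KRT14 had 358 counts in parental cells, 24 in clone 1, 0 in clone 6 and 1 in the library labelled clone 5. KRT8, KRT18 and CLDN7 (1 count in parental cells) were above the parental level in all 3 clones, as were 28.6% of the genes tested. CLDN4, ESRP1 and KRT14 were below it in all 3, as were 30.5%. KRT8 had 254 CPM in parental cells and 416, 525 and 806 in clone 1, clone 6 and the library labelled clone 5. In the same order, KRT18 had 303 and 419, 326 and 467 CPM. KRT5 had 13 counts and 659, 5 and 114, and KRT19 had 1 and 16, 2 and 1. Of 8 mesenchymal markers, all tested, 2 met the criterion higher in the clones (S100A4 with a log2 fold change of 3.41 and SPARC with 2.38, both also under 0.05 adjusted in DESeq2), and the list's summed level was 6012 CPM in parental cells and 9402 to 17668 in the clones. VIM, FN1, SPARC, TAGLN and S100A4 were above the parental level in each clone, as were 28.6% of the genes tested. The other mesenchymal markers were not. COL3A1 had 796 CPM in parental cells and 410, 5389 and 4871 in clone 1, clone 6 and the library labelled clone 5. In the same order, COL1A1 had 713 and 275, 2647 and 534, and ACTA2 had 9.08 and 6.92, 7.34 and 13.6. Of the hormone receptor and ERBB2 genes that define a triple-negative line, PGR had 0 to 3 counts, ESR1 had 9 to 79, and ERBB2 had 48.3 to 106 CPM. Of the blood markers, PTPRC had 4.45 CPM in parental cells and 41.7 to 105 in the clones, and it met the criterion and had an adjusted p under 0.05 in DESeq2. CD14 had 12.8 CPM in parental cells and 2.29, 11.3 and 4.28 in clone 1, clone 6 and the library labelled clone 5, LYZ had 1 count and 4, 3 and 49, CD3E had at most 8 counts and CD79A at most 16, and the list summed to 17.3 CPM in parental cells and 53.2 to 110 in the clones. The endothelial markers summed to 16.5 CPM in parental cells and 11 to 15 in the clones, most of it PECAM1, which had 16.1 CPM in parental cells and 13.9, 8.64 and 7.06 in clone 1, clone 6 and the library labelled clone 5. In the same order, VWF had 19 counts and 32, 212 and 405, KDR had 2 and 80, 2 and 33, TEK had 5 and 4, 2 and 215, and CLDN5 had 9 and 1, 13 and 33. The library labelled clone 5, in which CDH5 was highest, also had the most VWF, TEK and CLDN5 counts. It had the lowest PECAM1 level, and KDR was highest in clone 1. Of these endothelial markers, 0 of 5 met the criterion in edgeR or passed the adjusted threshold in DESeq2. The part of any of these in the levels of the cadherins and catenins was not tested. In bulk RNA, fewer cells of a kind and less RNA per cell cannot be told apart.

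Of the 10 members, 4 lie on the long arm of chromosome 16. Over the stretch from CDH11 to CDH13 (64943753 to 83800640), picked after the values were seen, 161 genes reached 1 CPM in some library, and relative to parental cells their median log2 ratio was -0.34 in clone 1, -0.51 in clone 6 and -0.01 in the library labelled clone 5. Over all 15280 such genes it was -0.07, -0.06 and -0.05. CDH1, CDH3 and CDH11 were highest among the clones in the library labelled clone 5, whose median lay nearest to that of all genes, and CDH13 was highest in clone 1. Whether the stretch has a part in their levels was not tested.

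The genes with the pattern most like that of CDH2 were sought among 10708 tested genes that reached 10 CPM in some library, by the root mean square difference of the 3 log2 ratios to the parental library. These were SSU72 (0.035), PFN2 (0.051) and LRSAM1 (0.052). The likeness is a description over 4 libraries, of which the parental one is shared.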

How the data were processed

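The counts of 4 libraries (parental SUM159 cells and NOS2KO clones 1, 5 and 6, grouped by the sample labels) were analysed. The authors deposited raw read counts per gene for 57500 Ensembl identifiers, without normalization. According to the submitters' processing notes, bcl2fastq 2.17, Trimmomatic 0.36, STAR 2.5.2b, featureCounts, Subread 1.5.2 and DESeq2 were used with GRCh38. Libraries were poly(A)-enriched and read as 2x150 paired ends. The strand setting and annotation release are not given in the sources used here. GENCODE release 29 gave a symbol to 56898 genes, and 54749 had the same ends there. CTNNB1 did not, and the coordinates in the text are those of the files.

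The test was edgeR 4.0.16 under R 4.3.3, with filterByExpr by group, TMM, estimateDisp, glmQLFit and glmQLFTest at their defaults, and the 22511 genes that passed the filter were adjusted by the Benjamini-Hochberg method. The dispersion came from the clones (common dispersion 0.319). A member's log2 fold change is that of fitted means. Ratios of a clone to the parental library carry an exact Clopper-Pearson interval (95%), and with 1 to 3 counts the ratio is read with that interval. In the shares of genes beyond 1, those at 0 in one library of a pair and not in the other were counted as beyond. DESeq2 1.42.0 was an alternative, beside other scalings, filters and clones left out, and the length of 1 principal transcript was added after seeing the data. The genes named are the members, NOS2, up to 4 genes of each other list that met the criterion, CDH5, SNAI1, SNAI2, ZEB1, ZEB2, the markers and the 3 genes nearest to CDH2 in pattern. CDH7, CDH10, CDH12, CDH17, PLEKHA7 and the genes that overlap a member were named after their values were seen. The same search for CDH1 is not reported here. The members and lists were chosen with earlier results of these data known. The test and the intervals were also run on simulated counts, the test with a dispersion common to all genes and the intervals with counting error alone. Those runs do not check a clone spread that differs by gene. Other steps ran in Python 3.11.15 with pandas 2.3.3, scipy 1.17.1, numpy 2.4.6 and, for figures, matplotlib 3.10.9. Depths were 90467395 to 122171287 counts.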

Additional observations from a re-analysis of the deposited data

How the results depend on the processing

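The number of members that met the unadjusted criterion was 3, and with a clone left out it was 1 to 3, the 1 (CDH6) without clone 6. Without the library labelled clone 5 the 3 were CDH3, CDH6 and CDH11. The number with an adjusted p under 0.05 was 0 in edgeR and 2 in DESeq2's Wald test. With each clone left out it was 0 in edgeR. Of 97 refitted log2 fold changes, 9 turned their direction and 2 gained an adjusted p under 0.05 (CDH6 and CTNND1 in DESeq2), and those that turned were all of CDH2 and CTNNA1. CDH2 went from -0.09 to 0.0033 with upper quartile scaling and lay between -0.26 and 0.09 with a clone left out (0.09 without clone 6). CTNNA1 went from -0.01 to 0.0078 with RLE size factors and in DESeq2, 0.08 with upper quartile scaling, 0.0016 without an expression filter, 0.02 with a minimum of 1 CPM, 0.07 without the library labelled clone 5 and 0.10 without clone 6, and its values with a clone left out were -0.21 to 0.10. The cause was not tested. Upper quartile scaling moved the median log2 fold change of all genes by 0.10. CDH1 was not tested without the library labelled clone 5, and DESeq2 gave CDH1 and CDH4 no adjusted p. The 90 ratios of single clones under other scalings moved by at most 0.14 on the log2 scale. No paired analysis was possible because the parental group has 1 library and shares fewer than 2 replicate numbers with the clones. Depth limits CDH1 and CDH4, which had at most 44 counts in a library.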
